A study of Rattus norvegicus with 18 samples.

Results

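Cholesterol synthesis was followed through 8 genes: 7 enzymes of the pathway (Hmgcs1, Idi1, Fdft1, Sqle, Lss, Cyp51 and Dhcr7) and Insig1, the sterol-regulated brake on it. They were taken by gene symbol from the deposited expression table, 8 of 32545 genes, each symbol matching 1 row. All 8 passed the filter for testing, which asked for 1 FPKM or more in 3 or more libraries, as did 11917 genes in all. FPKM is the number of sequenced fragments per kilobase of gene and by a library-size factor. The cells were H9C2, a line derived from embryonic rat heart, and the series asks how microsecond pulsed electric fields damage heart muscle cells. Poly(A) RNA was sequenced in 18 libraries, 3 in each of 6 groups. NC cells were untreated. ES10 cells received 10 pulses and ES50 cells 50 pulses, each pulse lasting 100 µs at 1500 V/cm. P cells had 48 h of exposure to PE, a compound given only under that name, at 50 µmol/L. P_ES10 and P_ES50 cells had the same PE exposure and then 10 or 50 of these pulses. The model is a cell line, and no source used here gives the time between pulses and harvest. The labels number the replicates without saying whether they were separate cultures, so the p-values rest on a spread that may be technical only.

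Cells make cholesterol from acetyl-CoA in a long series of steps. Hmgcs1 encodes the HMG-CoA synthase of the early, mevalonate part, Idi1 the isomerase that makes dimethylallyl diphosphate, and Fdft1 squalene synthase, which commits the carbon to sterols. Sqle (squalene epoxidase), Lss (lanosterol synthase), Cyp51 (lanosterol demethylase) and Dhcr7 (the reductase of the last step in one branch) act after squalene. Transcription of these genes is driven by SREBP2, a membrane-bound factor that SCAP carries from the endoplasmic reticulum to the Golgi when sterols are low. INSIG1 holds SCAP back when sterols are high, and Insig1 is itself an SREBP target. SREBP binds sterol regulatory elements and acts with NF-Y, a factor that binds CCAAT boxes.

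Start-site sequences are shown for the 4 members with the largest responses to 10 pulses in PE-treated cells for which the reference held one. Each runs from 250 bases before to 50 bases after the annotated start, from RefSeq on build GRCr8, which is not the build of the expression table. Capitals mark the NF-Y box CCAAT on either strand, read as ATTGG on the other, and matches with 1 mismatch to the sterol regulatory element TCACNCCAC on either strand.
Hmgcs1, chr2:53382054-53382353, plus strand: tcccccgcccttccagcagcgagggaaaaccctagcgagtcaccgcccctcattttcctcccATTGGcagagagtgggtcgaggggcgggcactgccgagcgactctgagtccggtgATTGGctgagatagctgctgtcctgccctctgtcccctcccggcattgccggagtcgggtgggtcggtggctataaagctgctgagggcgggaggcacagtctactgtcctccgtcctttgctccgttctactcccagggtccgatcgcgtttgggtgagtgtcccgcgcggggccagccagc
Idi1, chr17:66547475-66547774, minus strand: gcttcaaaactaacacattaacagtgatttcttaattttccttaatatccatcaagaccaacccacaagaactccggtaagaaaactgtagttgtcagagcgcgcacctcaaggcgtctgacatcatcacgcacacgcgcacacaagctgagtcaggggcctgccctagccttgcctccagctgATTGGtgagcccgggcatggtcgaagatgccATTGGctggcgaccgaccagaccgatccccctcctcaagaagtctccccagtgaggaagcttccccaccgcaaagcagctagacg
Cyp51, chr4:30991443-30991742, plus strand: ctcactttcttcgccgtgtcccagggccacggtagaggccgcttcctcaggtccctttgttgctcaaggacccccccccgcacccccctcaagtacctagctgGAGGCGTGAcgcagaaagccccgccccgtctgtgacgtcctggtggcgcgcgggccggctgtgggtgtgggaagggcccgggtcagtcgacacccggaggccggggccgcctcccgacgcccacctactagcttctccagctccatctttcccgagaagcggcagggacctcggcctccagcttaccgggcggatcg
Insig1, chr4:8057720-8058019, minus strand: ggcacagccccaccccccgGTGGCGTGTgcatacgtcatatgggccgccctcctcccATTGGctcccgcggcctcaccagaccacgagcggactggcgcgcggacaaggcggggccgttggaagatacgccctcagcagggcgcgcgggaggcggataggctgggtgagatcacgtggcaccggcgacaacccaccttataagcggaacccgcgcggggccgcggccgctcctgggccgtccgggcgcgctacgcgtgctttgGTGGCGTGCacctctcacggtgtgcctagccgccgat
Of the 8 members, 6 had a promoter in the reference; Fdft1 and Sqle had none. None of the 6 held TCACNCCAC without a mismatch, a string found in 1.12% of the 33469 promoters of the same length. With 1 mismatch allowed, Insig1 had 2 matches, beginning at base -231 and base 14 relative to the start, and Cyp51 had 1, against 23.7% of all promoters with at least 1. The NF-Y box was in 4 of the 6 (Hmgcs1, Idi1, Lss and Insig1), in 11 of 12 promoters of other enzymes of the pathway, and in 37.5% of all promoters. The GC box GGGCGG was in 5 of the 6 and in 33.1% of all, and the E-box CACGTG in Insig1 alone of the 6 and in 6.42% of all. A match describes these letters only, and no binding was measured.

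Gene-level reads, worked out from the FPKM and the gene lengths, numbered 14004929 to 17247201 per library. Mitochondrial genes took 5.41 to 14% of reads in NC, ES10, P and P_ES10, but 46.7 to 49.6% in P_ES50 and 91.4 to 92.9% in ES50, which left 1230554 to 1466851 reads on nuclear genes in ES50. The 8 members together had 1056 to 1210 reads in an ES50 library and 4577 to 18948 in the others. The deposited FPKM are scaled so that the median gene is nearly level between libraries, and changes below are relative to it unless another scaling is named. Replicates of ES50 were less alike than those of other groups, with log2 correlations of 0.949 to 0.955 across genes against 0.979 to 0.988. The labels call the cells myocardium. Of 11 cardiomyocyte markers, 4 had a mean FPKM of at least 1 in NC (Tnnt2, Nppb, Tnni3 and Pln), Myh6 was at 0.0115 FPKM and Myl2 at 0, and of 8 skeletal myoblast markers 3 did (Myod1, Cdh15 and Des, at 32, 85.4 and 9.1 FPKM), with Myf6 and Pax7 at 0. Fibroblast markers at that level in NC numbered 5 of 7, and smooth muscle markers 5 of 5. Their FPKM summed to 2380 to 2470 and 2160 to 2360 in NC. The skeletal myoblast markers summed to 127 to 128 and the cardiomyocyte markers to 17.1 to 19.3. In bulk RNA, fewer cells of a kind and less RNA per cell cannot be told apart.

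In cells without PE, 10 pulses raised 6 of the 8 genes, and none fell. The largest rise was that of Idi1, at 2.22 times its untreated FPKM, followed by Hmgcs1 at 1.75, Insig1 at 1.62 and Cyp51 at 1.56. Sqle and Fdft1 rose to 1.46 and 1.38 times. Called genes are those with an adjusted p under 0.05 in limma, fitted to log2(FPKM + 1) over all tested genes and 18 libraries. Of all tested genes, 6.36% were called higher and 2.21% lower, so that higher calls were 74.2% of all calls. That share was 54.7% after scaling to total reads, 36.5% to nuclear reads and 56.7% by quantiles, and 6, 5 and 6 of the members were then called higher. The median log2 change of the 8 was 0.58, against 0.015 over all tested genes.

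Hmgcs1 (ENSRNOG00000016552, chromosome 2, 52431601 to 52445055, build Rnor 6.0) stood at 31.5, 28.7 and 29.0 FPKM in the NC libraries and at 55.0, 53.2 and 47.6 in ES10. The lowest ES10 library was above the highest NC library, and the log2 change was 0.78 ± 0.054 (standard error, adjusted p = 4.15e-07 in limma). Idi1 (ENSRNOG00000016690, chromosome 17, 57976268 to 57984036) was measured at 7.63, 7.09 and 7.05 FPKM in NC and 17.1, 15.1 and 15.99 in ES10, a change of 1.05 ± 0.075 (adjusted p = 6.63e-07). Its groups were far apart, and it ranked 44 of 11917 genes by size of increase.

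Among the enzymes after farnesyl diphosphate, Cyp51 (ENSRNOG00000007234, chromosome 4, 27175243 to 27194018) had 34.5, 34.5 and 31.9 FPKM in NC and 51.9, 53.7 and 51.5 in ES10. All ES10 libraries lay above NC, with a log2 change of 0.63 ± 0.063 (limma adjusted p = 1.59e-05). Sqle went from 23.5 ± 0.398 to 34.4 ± 1.25 FPKM (mean ± SD, n = 3), with an adjusted p of 0.0231 in limma. Its spread is drawn from all 18 libraries, and the call was lost whichever of the 6 NC and ES10 libraries was left out (adjusted p = 0.0571 to 0.0833), while the change stayed at 0.51 to 0.56. With scaling to nuclear reads it was lost as well (0.45 ± 0.14, adjusted p = 0.0631), so that 5 of 8 were called. The rise of Sqle was called without the ES50 libraries in the fit (0.53 ± 0.035, limma adjusted p = 4.52e-07). It was also called with only NC and ES10 (0.53 ± 0.037, adjusted p = 4.9e-04). Fdft1 rose from 5.69 ± 0.261 to 7.85 ± 0.305 FPKM (limma adjusted p = 0.00252).

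Lss and Dhcr7 were not called in this comparison. Lss (ENSRNOG00000054549, chromosome 20, 12842884 to 12870497) was at 5.78 ± 0.176 FPKM in NC and 7.22 ± 0.221 in ES10 (0.28 ± 0.12, limma adjusted p = 0.197), and Dhcr7 (ENSRNOG00000020776, chromosome 1, 217018916 to 217034904) at 2.36 ± 0.0764 and 3.09 ± 0.419 (0.28 ± 0.14, adjusted p = 0.299). In both genes the 3 ES10 libraries still lay above the 3 NC libraries, as they did for all 8 members and for 23.9% of all tested genes. Without the ES50 libraries in the fit both were called, with adjusted p = 0.0103 for Lss and 0.043 for Dhcr7. Insig1 (ENSRNOG00000006859, chromosome 4, 342302 to 350515) read 27.9, 29.0 and 27.3 FPKM in NC and 45.0, 49.1 and 42.2 in ES10. The brake of the pathway thus moved in the same direction as its enzymes, by 0.67 ± 0.077 (limma adjusted p = 4.85e-05).

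**Figure D1:**
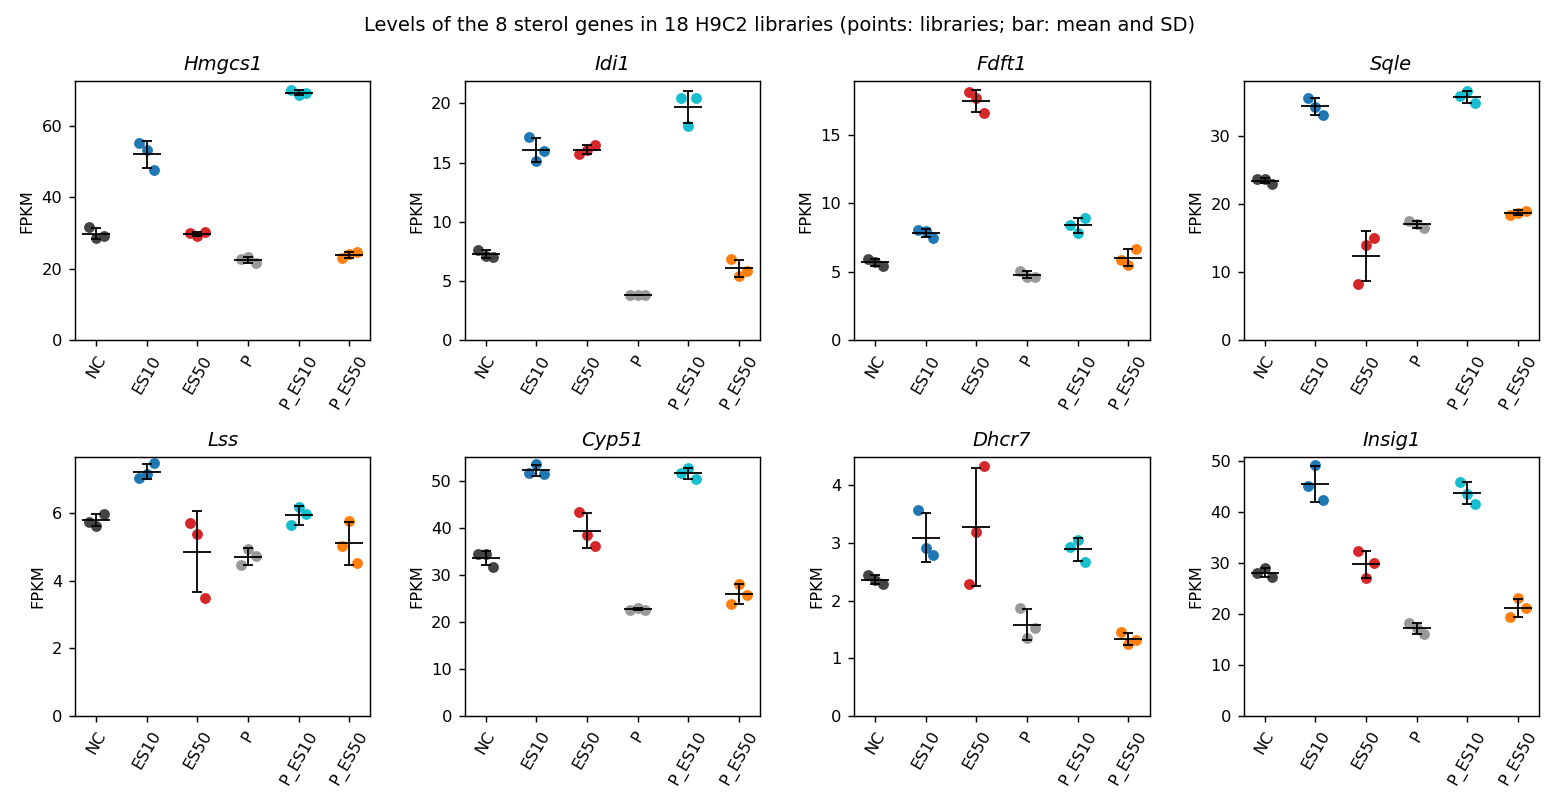
FPKM of each of the 8 genes (y axis, from 0) in the 6 groups (x axis); points are libraries, the horizontal bar is the group mean and the whiskers the SD of 3 libraries. In every panel the ES10 points lie above NC and the P_ES10 points above P, whereas the ES50 points are highest for Fdft1 and lowest for Sqle.

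PE alone had the opposite sign. Of the 8 genes 4 fell against NC (Idi1, Insig1, Cyp51 and Hmgcs1) and none rose, where 4.81% of all tested genes were called lower and 4.72% higher. Idi1 read 3.84, 3.79 and 3.84 FPKM in the P libraries, 0.527 times its NC mean (-0.78 ± 0.075, limma adjusted p = 1.43e-05). Insig1 read 18.2, 17.2 and 16.1 (0.612 times), Cyp51 22.6, 23.0 and 22.6 (0.677 times) and Hmgcs1 22.7, 23.2 and 21.6 (0.757 times). None of these groups overlapped with NC, but neither did those of the members not called. The share of all tested genes without overlap was not worked out for this comparison.

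The other 4 lay below 0 as well, at -0.44 ± 0.14 for Sqle, -0.38 ± 0.14 for Dhcr7, -0.25 ± 0.12 for Lss and -0.21 ± 0.073 for Fdft1, with adjusted p of 0.0554, 0.107, 0.231 and 0.0869 in limma. The count depended on the libraries in the fit: with only NC and P, or with all libraries but ES50, 8 of 8 were called lower. The share of all tested genes called lower in those fits is not given here, so this count has no background beside it. Scaling to total reads shifted the median gene by 0.11 in this comparison and moved the share of higher calls among all calls from 49.6% to 81.3%, but no member changed sign.

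In PE-treated cells, 10 pulses raised 7 of the 8 genes, all but Lss. Idi1 reached 5.15 times its level in P, Hmgcs1 3.07, Insig1 2.54, Cyp51 2.28 and Sqle 2.1 times. Fdft1 and Dhcr7 rose to 1.75 and 1.82 times. Among all tested genes 13.2% were called higher and 9.66% lower, and the median log2 change was 0 over all genes and 1.1 over the 8. For each of the 8 the P_ES10 libraries all lay above the P libraries, as for 27.2% of all tested genes. Higher calls were 57.7% of all calls, and 34.6% after scaling to total reads or 39.2% to nuclear reads, and 7 of 8 members were called higher under each.

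Hmgcs1 had 70.0, 68.6 and 69.0 FPKM in P_ES10, a log2 change of 1.58 ± 0.054 over P (limma adjusted p = 8.76e-11). Idi1 had 20.5, 18.1 and 20.5 FPKM, a change of 2.10 ± 0.075 (adjusted p = 1.22e-10), and ranked 8 of 11917 genes by size of increase. These were the highest levels of both genes in any group. Cyp51 was at 51.7, 53.0 and 50.6 FPKM in P_ES10 and Insig1 at 45.8, 43.4 and 41.5, with changes of 1.15 ± 0.063 and 1.30 ± 0.077. Sqle stood at 35.9, 36.7 and 34.9 FPKM (1.03 ± 0.14, limma adjusted p = 5.73e-05), well clear of P. Dhcr7, the lowest of the 8 per unit of length, went from 1.58 ± 0.265 to 2.88 ± 0.194 FPKM (0.59 ± 0.14, limma adjusted p = 0.00674). Lss was at 4.71 ± 0.246 in P and 5.93 ± 0.279 in P_ES10 (0.28 ± 0.12, adjusted p = 0.112), with no overlap between the libraries. It was called without ES50 in the fit (adjusted p = 0.00497) or with only P and P_ES10 (0.00977), which made 8 of 8. The share of all tested genes called higher in those fits is not given here.

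Whether PE changed the response to 10 pulses was tested as the interaction, the log2 change with PE minus that without. It was above 0 and called for 4 of the 8, Idi1 (1.05 ± 0.11, limma adjusted p = 2.03e-04), Hmgcs1 (0.80 ± 0.076, 1.73e-04), Insig1 (0.62 ± 0.11, 0.0108) and Cyp51 (0.53 ± 0.090, 0.00927). Over all tested genes 0.562% were called above 0 and 0.344% below, and the member count was 4 under each scaling, while scaling to total reads moved the share of calls above 0 from 62% to 35.5%. Sqle (0.50 ± 0.19), Fdft1 (0.30 ± 0.10) and Dhcr7 (0.31 ± 0.20) were not called, with adjusted p of 0.435, 0.324 and 0.82, and Lss was at 0.00 ± 0.17. Without ES50 in the fit Sqle was called as well (adjusted p = 0.00015).

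The groups with 10 pulses were also compared with each other, a comparison added after the data were seen. Of the 8 genes only Hmgcs1 was called higher in P_ES10 than in ES10, at 69.2 ± 0.743 against 51.9 ± 3.84 FPKM (0.41 ± 0.054, limma adjusted p = 9.89e-04), and none was lower. Of all genes 0.688% were called higher and 1.12% lower, and scaling to total reads moved the share of higher calls from 38.1% to 68.2%. Idi1 was at 19.7 ± 1.34 against 16.1 ± 1.00 FPKM (0.28 ± 0.075, adjusted p = 0.0879). Cyp51, Insig1, Sqle, Fdft1 and Dhcr7 overlapped between ES10 and P_ES10, with log2 changes of -0.07 to 0.09. Between P and NC the same 5 genes lay at -0.68 to -0.21. Without ES50 in the fit Idi1 was also called higher and Lss lower.

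**Figure D2:**
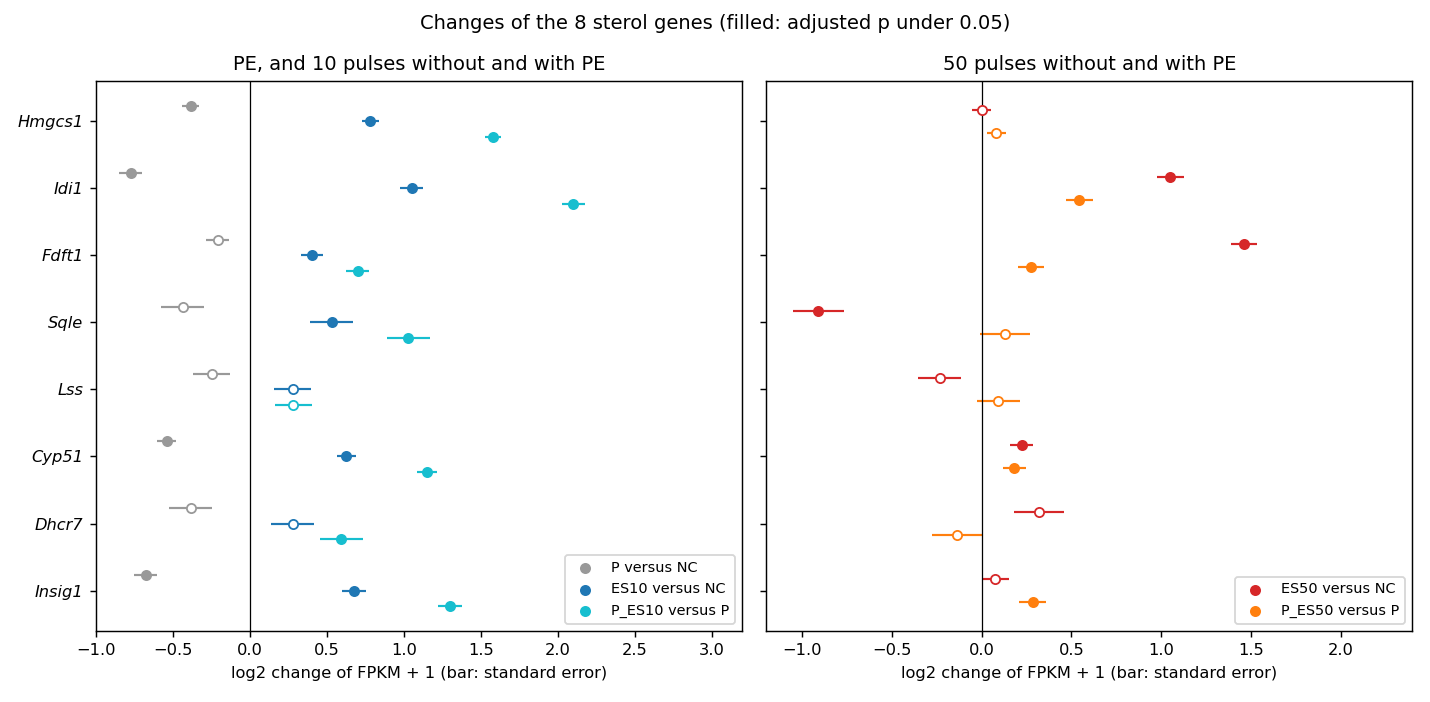
Log2 change of FPKM + 1 (x axis) of each of the 8 genes (y axis) for PE and 10 pulses (left) and for 50 pulses (right); whiskers are standard errors and filled points have an adjusted p under 0.05. On the left all changes after PE lie below 0 and all changes after 10 pulses above it, while on the right Fdft1 and Idi1 lie to one side and Sqle to the other in ES50.

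In cells without PE, 50 pulses moved the genes in different directions. Relative to the median gene, Fdft1, Idi1 and Cyp51 rose, Sqle fell, and the other 4 were not called, so that 3 of 8 were higher and 1 lower. This was in groups where 31.9% of all tested genes were called higher and 40.1% lower. Fdft1 (ENSRNOG00000021314, chromosome 15, 46339249 to 46367302) read 18.1, 17.7 and 16.6 FPKM in ES50, 3.07 times its NC mean (1.46 ± 0.073, limma adjusted p = 6.06e-11). Sqle (ENSRNOG00000009550, chromosome 7, 99609191 to 99624732) read 8.26, 13.9 and 14.99, or 0.528 times (-0.91 ± 0.14, adjusted p = 1.95e-05). The enzyme that makes squalene and the enzyme that next oxidises it thus went in opposite directions on this scale, and neither group overlapped with NC.

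Idi1 was at 15.7, 16.1 and 16.5 FPKM in ES50, the same 2.22 times NC as after 10 pulses. Cyp51 was at 39.5 ± 3.71 against 33.6 ± 1.51 (0.22 ± 0.063, limma adjusted p = 0.0052), but at 0.00 ± 0.061 after quantile normalization, and with only the 2 groups in the fit its adjusted p was 0.0575. Hmgcs1 (0.00 ± 0.054), Insig1 (0.08 ± 0.077), Lss (-0.23 ± 0.12) and Dhcr7 (0.32 ± 0.14) overlapped with NC. Dhcr7 was called higher after quantile normalization (0.60 ± 0.13, limma adjusted p = 0.001) and without replicate 1 of ES50 (0.49 ± 0.12, adjusted p = 0.00199). The count of lower genes was 2 without replicate 1 or replicate 2 of ES50, where Lss was called too. Counts behind these values were low, from 14 to 28 reads per library for Dhcr7, 37 to 64 for Lss, 50 to 100 for Sqle and 123 to 147 for Fdft1.

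The direction depended on scaling. Scaled to total reads, of which mitochondrial genes held 91.4 to 92.9% in ES50, the median gene shifted by -2.49 and 8 of 8 members were called lower, from -1.58 for Fdft1 to -3.86 for Sqle, as were 96.3% of all genes. Quantile normalization shifted it by 0.18 and moved the share of higher calls from 44.3% to 53.5%. Ratios within a library do not depend on scaling by a common factor per library, though quantile normalization can change them. The ratios here are of the deposited FPKM. Fdft1 was at 0.235 to 0.249 of the FPKM of Sqle in NC and at 1.11 to 2.19 in ES50. Idi1 was at 0.242 to 0.247 of Hmgcs1 in NC, 0.285 to 0.336 in ES10 and 0.525 to 0.554 in ES50. None of these ranges overlapped, and each exact two-sided permutation p against NC was 0.1, the smallest that 3 against 3 libraries can give.

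The members' composition changed in the same way. Of the FPKM summed over the 8 genes, Sqle made up 17.3 ± 0.212% in NC and 8.13 ± 2.46% in ES50, and Fdft1 4.18 ± 0.0763% and 11.4 ± 0.463%. Cyp51 made up 24.7 ± 0.53% and 25.8 ± 2.08%, which overlapped. Other RNAs moved in ES50 too: the summed FPKM of 7 fibroblast markers was 2380 to 2470 in NC and 547 to 574 in ES50, and that of 5 smooth muscle markers 2160 to 2360 and 5460 to 5680. Their largest parts were Col1a1 (1450 in NC and 247 in ES50) and Acta2 (1400 and 3540). The sum of 11 cardiomyocyte markers was 17.1 to 19.3 in NC and 50.9 to 58 in ES50. That of 8 skeletal myoblast markers was 127 to 128 and 88.7 to 97.4. The part of these shifts and of the mitochondrial share in the members' changes was not tested.

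**Figure D3:**
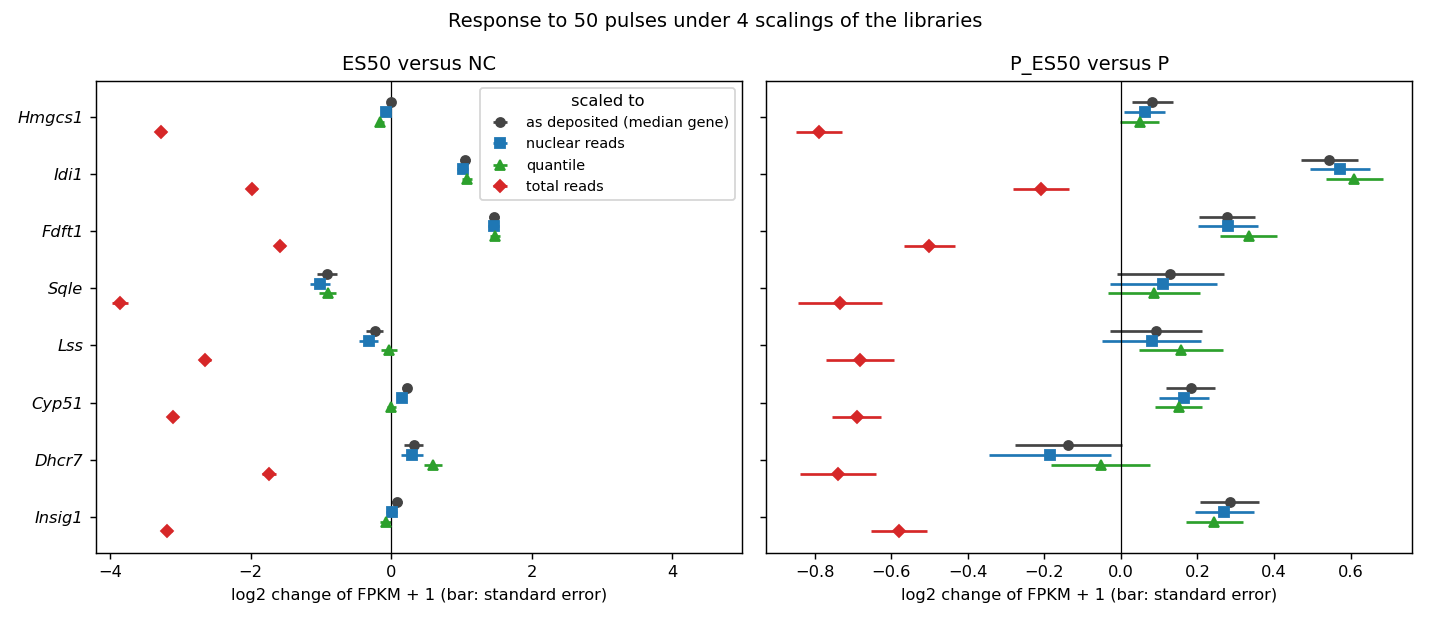
Log2 change of FPKM + 1 (x axis, whiskers standard errors) of the 8 genes (y axis) after 50 pulses without PE (left) and with PE (right), as deposited and with libraries scaled to nuclear reads, by quantiles or to total reads. Fdft1 and Idi1 lie above 0 and Sqle below 0 in ES50 under the first 3 scalings, and all 8 genes lie below 0 when scaled to total reads.

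Between ES50 and ES10, which differ by the number of pulses, 5 of the 8 were lower in ES50 (Sqle, Hmgcs1, Insig1, Lss and Cyp51) and 1, Fdft1, was higher. The background was 41.3% lower and 33% higher. Sqle differed most, at 12.4 ± 3.62 against 34.4 ± 1.25 FPKM (-1.44 ± 0.14, limma adjusted p = 1.05e-07), and Hmgcs1 was at 29.7 ± 0.646 against 51.9 ± 3.84 (-0.78 ± 0.054). Fdft1 was 2.23 times as high in ES50. Idi1 had the same mean of 16.1 FPKM in both (0.00 ± 0.075). Scaled to total reads all 8 were lower in ES50, as were 96.3% of all genes.

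With PE, 50 pulses raised 4 of the 8. Against P, Idi1, Insig1, Fdft1 and Cyp51 rose and none fell, where 14.1% of all genes were called higher and 14.2% lower. Idi1 read 6.90, 5.44 and 5.86 FPKM in P_ES50, 1.59 times P (0.55 ± 0.075, limma adjusted p = 6.85e-05), and Insig1 19.3, 23.0 and 21.1, or 1.23 times (0.28 ± 0.077, adjusted p = 0.012). Fdft1 was at 6.02 ± 0.614 against 4.79 ± 0.262 (0.28 ± 0.073, adjusted p = 0.0104) and Cyp51 at 25.99 ± 2.06 against 22.7 ± 0.217 (0.18 ± 0.063, adjusted p = 0.0436). Hmgcs1, Sqle, Lss and Dhcr7 were at 0.08, 0.13, 0.09 and -0.14, uncalled. The count fell to 2 of 8 without replicate 3 of P or replicate 2 or 3 of P_ES50, and was 3 of 8, without Cyp51, with no filter, nuclear reads, quantiles or only the groups compared (adjusted p for Cyp51 = 0.0572 to 0.0758). With scaling to total reads 8 of 8 were lower, as were 87.8% of all genes.

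Against P_ES10, 7 of the 8 were lower in P_ES50 and none higher, with 12.9% of all genes called lower and 10.5% higher. Hmgcs1 was at 23.9 ± 0.827 against 69.2 ± 0.743 FPKM (-1.5 ± 0.054, limma adjusted p = 2.11e-11), Idi1 at 6.06 ± 0.752 against 19.7 ± 1.34 (-1.55 ± 0.075), and Insig1 and Cyp51 at 0.485 and 0.502 times. Sqle, Dhcr7 and Fdft1 were at 0.524, 0.465 and 0.717 times. Lss overlapped between the groups (-0.19 ± 0.12, adjusted p = 0.297). With PE, the levels after 10 pulses were thus above those after 50 for each gene but Lss.

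The response to 50 pulses differed with PE for 3 of the 8. The interaction was below 0 for Fdft1 (-1.19 ± 0.10, limma adjusted p = 1.09e-07) and Idi1 (-0.51 ± 0.11, adjusted p = 7.42e-04) and above 0 for Sqle (1.04 ± 0.19, adjusted p = 2.44e-04), against a background of 31.1% above and 27.9% below. In P_ES50 Fdft1 was at 0.292 to 0.351 of the FPKM of Sqle, against 0.273 to 0.289 in P. Scaled to total reads the interaction was above 0 for all 8 and called for 88.7% of all genes, with a shift of the median gene of 1.71. Dhcr7 was also called below 0 after quantile normalization (-0.65 ± 0.19, adjusted p = 0.00873). The count above 0 was 3 without replicate 1 of ES50 and 2 without replicate 1 of P_ES50.

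Per unit of length, Cyp51 and Hmgcs1 were the highest of the 8 in NC, at 33.6 and 29.8 FPKM, and Dhcr7 the lowest at 2.36. Across groups Hmgcs1 followed the order P_ES10, ES10, NC, ES50, P_ES50 and P, with overlap between NC and ES50 and between P_ES50 and P. Idi1 ran P_ES10, ES50, ES10, NC, P_ES50 and P, with overlap only of ES50 and ES10. Cyp51 and Insig1 shared the order ES10, P_ES10, ES50, NC, P_ES50 and P. In both ES10 overlapped with P_ES10, and for Insig1 ES50 overlapped with NC. P was the lowest group for 6 of the 8, the exceptions being Sqle, lowest in ES50, and Dhcr7, lowest in P_ES50, where it overlapped with P. For Lss P overlapped with ES50. These orders hold for the deposited scale, and with total reads all 8 were lower in ES50 than in NC.

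The members varied together where ES50 was left out. Over the other 15 libraries the correlation of a member's log2 level with the mean of the other 7 was 0.792 for Lss and 0.889 to 0.996 for the rest. With ES50 it was 0.365 for Fdft1, 0.521 for Sqle and 0.533 for Lss, 0.75 for Dhcr7, and still 0.901 to 0.987 for Hmgcs1, Idi1, Cyp51 and Insig1. These libraries share groups and scaling, so the correlations only describe them.

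Among the 15 other enzymes of cholesterol synthesis, 3 rose after 10 pulses without PE, Msmo1 and Fdps among them, and 7 with PE, and none fell in either. The background was 6.36% of all tested genes higher without PE and 13.2% with it. With scaling to total reads, to nuclear reads and by quantiles, run for these lists after the data were seen, 6, 1 and 5 rose without PE (Msmo1 in each) and 7 with PE each time. Of all tested genes 7.72%, 2.99% and 5.87% were then called higher without PE, and 12.8%, 9.04% and 13.2% with it. Msmo1, a sterol methyl oxidase, was at 59.6 ± 1.52 FPKM in NC and 110 ± 3.68 in ES10 (0.87 ± 0.11, limma adjusted p = 1.08e-04), and at 62.3 ± 2.57 and 118 ± 2.20 in P and P_ES10 (0.91 ± 0.11). Fdps, farnesyl diphosphate synthase, rose by 0.20 ± 0.037 and 0.34 ± 0.037. Without PE its call was lost with total reads (0.17 ± 0.055, limma adjusted p = 0.0565) and nuclear reads (0.11 ± 0.036, adjusted p = 0.0735). With PE, Nsdhl (0.58 ± 0.13), a sterol dehydrogenase, also rose. Their median changes were 0.20 in both comparisons, below the members' 0.58 and 1.1. Their interaction with PE was called for 0 of 15 in limma, with an unadjusted p under 0.05 for 2, among them Fdps (0.0184). The members were chosen with earlier results of these data known, so their difference from the other enzymes can follow from that choice. In ES50, on the deposited scale, 6 of the 15 rose against NC and 8 fell, where 31.9% of all genes were called higher and 40.1% lower. With total reads all 15 fell, as did 96.3% of all genes. Examples on the deposited scale are Fdps (1.13 ± 0.037) and Msmo1 (-1.46 ± 0.11).

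**Figure D4:**
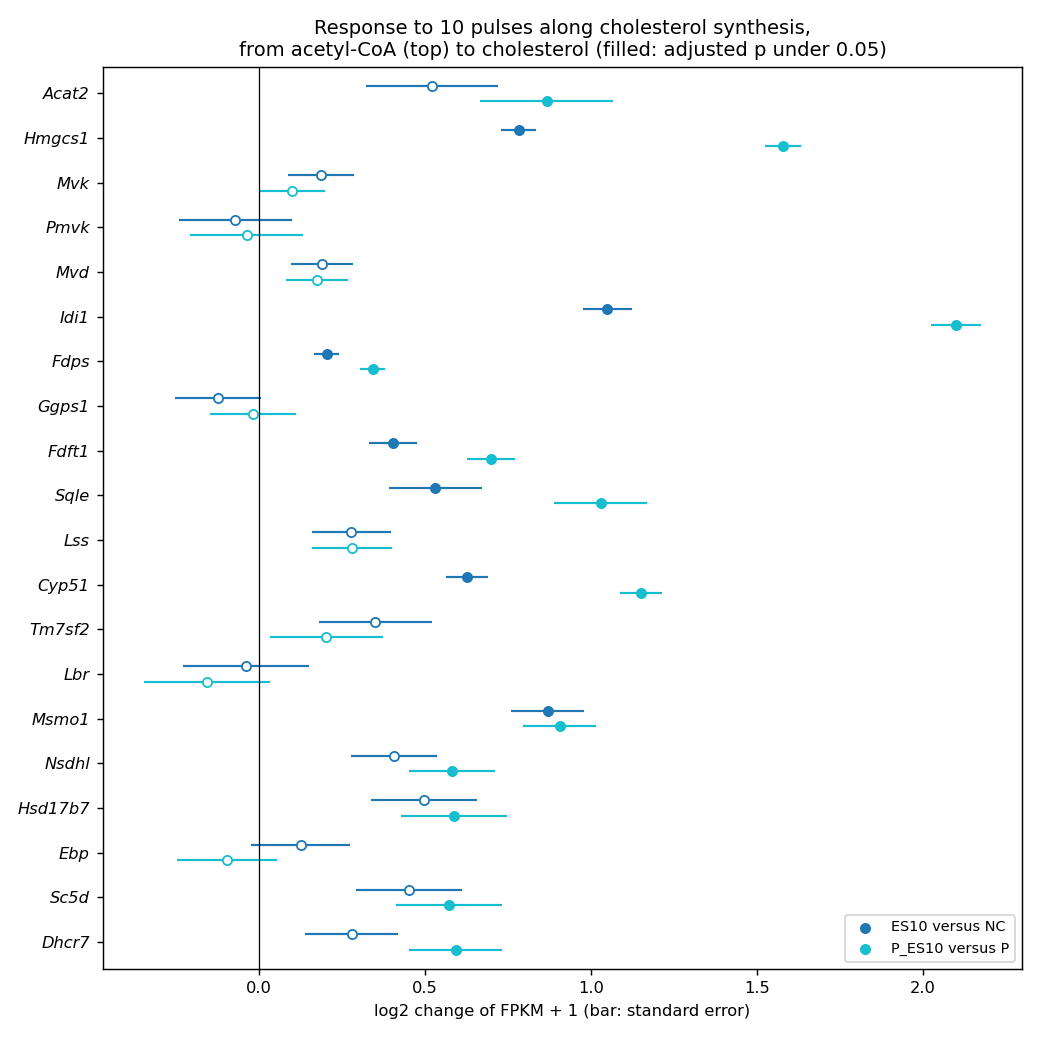
Log2 change of FPKM + 1 (x axis, whiskers standard errors) after 10 pulses without PE (dark) and with PE (light) for 20 enzymes (y axis) ordered from acetyl-CoA to cholesterol, with Ggps1 as the branch to geranylgeranyl diphosphate; filled points have an adjusted p under 0.05. With PE Idi1 and Hmgcs1 lie farthest to the right, and Mvk, Pmvk, Mvd, Ggps1, Lss, Tm7sf2, Lbr and Ebp are uncalled in both.

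Of the genes that control the pathway, Srebf2, which encodes SREBP2, rose after 10 pulses from 16.9 ± 0.617 to 22.5 ± 0.755 FPKM without PE (0.39 ± 0.073, limma adjusted p = 0.00339) and from 16.1 ± 0.372 to 21.3 ± 0.983 with it (0.38 ± 0.073, adjusted p = 0.00153). It stayed called in both under the 3 other scalings. It was the 1 gene of 11 for SREBP processing and sterol sensing that rose without PE; with PE, Rnf139, a ubiquitin ligase gene, rose too (0.45 ± 0.11). Scap (-0.05 ± 0.059 and -0.04 ± 0.059), Srebf1 (-0.17 ± 0.14 and -0.23 ± 0.14) and Insig2 (0.25 ± 0.14 and -0.09 ± 0.14) were not called. With total reads and PE, 4 of the 11 were lower, Srebf1 (-0.33 ± 0.11, limma adjusted p = 0.0355) among them, and with nuclear reads or quantiles 1 was. Of 12 tested genes for uptake, transport and export, 4 rose without PE and 2 with PE. For both lists the background was 6.36% of all tested genes higher without PE and 13.2% with it. Without PE, Npc1, Npc2 and Lrp1 were not called with scaling to nuclear reads (adjusted p = 0.133, 0.642 and 0.0983 in limma). Npc2 was not called under any of the other scalings without PE. With PE, total reads, nuclear reads and quantiles gave 4, 2 and 3 genes of uptake, transport and export lower and 3, 2 and 3 higher. Of all tested genes 24.1%, 14% and 13.8% were lower under these scalings, and 12.8%, 9.04% and 13.2% higher. Npc1, which exports cholesterol from lysosomes, rose by 0.61 ± 0.17 and 0.88 ± 0.17, and without PE Npc2 and Lrp1 rose by 0.13 ± 0.033 and 0.21 ± 0.042.

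Of 11 tested genes of fatty acid synthesis, the main targets of SREBP1, 2 rose after 10 pulses without PE (Fads2, 0.26 ± 0.047, and Acly, 0.19 ± 0.051) and none fell, with a median of 0.14. Acly was not called under any of the other scalings, and 1 gene was called lower in each, Gpam (-0.35 ± 0.088) with total reads and Scd2 with nuclear reads (-0.27 ± 0.061) and quantiles (-0.25 ± 0.062). Me1, below, was not called with total or nuclear reads. With PE 2 rose, Fads2 (0.34 ± 0.047) and Me1 (0.22 ± 0.058), and 2 fell, the desaturase gene Scd2 (-0.49 ± 0.061) and Gpam (-0.52 ± 0.11). The background was 6.36% of all tested genes higher and 2.21% lower without PE, and 13.2% and 9.66% with it. No list was tested against these shares. Of 10 genes on the non-sterol branches of the mevalonate pathway, Dolk (-0.59 ± 0.092) and Dhdds (-0.28 ± 0.093), both for dolichol, fell with PE. Without PE none was called on the deposited scale, where Dolk was at -0.30 ± 0.092, but Dolk was called lower under each of the 3 other scalings, at -0.30 to -0.41. PE alone lowered 2 of the 15 other enzymes, Fdps (-0.30 ± 0.037) and Acat2 (-0.66 ± 0.20, named after its value was seen), while Msmo1 (0.06 ± 0.11) and Srebf2 (-0.06 ± 0.073, and 0.04 ± 0.052 with total reads) were not called. It also lowered 4 of the 11 genes of fatty acid synthesis, where 4.81% of all tested genes were called lower. With total reads, nuclear reads and quantiles, 4, 5 and 6 of the 11 were lower, against 4.68%, 4.83% and 7.21% of all tested genes.

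Outside these lists, the genes whose log2 level was most like the members' mean over the 18 libraries were Tbc1d9 (correlation 0.968), Ppp1r14c (0.955), Magi3 (0.954), Cacnb2 (0.93), Trim37 (0.923), Fos (0.923), Srgap3 (0.922), Zfp367 (0.92), Kctd9 (0.919) and Sh3gl1 (0.918). Tbc1d9 was at 9.9 FPKM in NC, 14.5 in ES10, 6.84 in P and 13.5 in P_ES10. Over the 15 libraries without ES50 only 1 of these 10, Tbc1d9 (0.991), was again among the 10 closest, which Atf6 and Sp1, named after their values were seen, headed at 0.993 each.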

How the data were processed

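RNA of 18 libraries of H9C2 cells was sequenced in 6 groups of 3, mapped to treatments by the labels. The authors deposited FPKM per gene with each gene's length; build Rnor 6.0 is named in the submitters' processing notes. Aligner, counter, annotation release and strand setting were not given in the sources used here. FPKM times length came out as whole multiples of 1 step (within 0.01) for 100% of values in every library. These multiples were taken as reads, and their size showed that the deposited values carry a median-ratio library scaling, not total reads.

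log2(FPKM + 1) of the 11917 genes with 1 FPKM or more in 3 or more libraries was fitted in limma 3.58.1 (R 4.3.3) with 6 group means and a mean-variance trend. P-values were adjusted by Benjamini-Hochberg over all tested genes in each comparison and called under 0.05. The script was tested on simulated data. A fold change on this scale understates that of low genes; ratios of group mean FPKM are given too. Promoters and motifs were read with Python 3.11.15, and figures drawn with matplotlib 3.10.9.

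The members, lists and markers were chosen with earlier results of these data known, and no p-value was adjusted over a list alone. P_ES10 versus ES10 was added after the data were seen. All members are named. Of the other lists, called genes in the 10-pulse comparisons are named, up to 4 per list by smallest adjusted p, with Srebf1, Srebf2, Scap and Insig2 always, and outside the lists the 10 genes most correlated with the members' mean. Some listed genes are counted but not reported here by name. Alternatives covered the pseudocount, filter, scaling, libraries in the fit, the replicate number and each replicate left out.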

Additional observations from a re-analysis of the deposited data

Results flagged for a closer look

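The response to 10 pulses differed between cells with and without PE for 4 of the 8 genes, by the interaction term in limma, against 0.562% of all tested genes called above 0 and 0.344% below. The difference of the log2 changes, with PE minus without, was 0.80 for Hmgcs1, 1.05 for Idi1, 0.53 for Cyp51 and 0.62 for Insig1, each with 3 of 3 P_ES10 libraries above P and 3 of 3 ES10 libraries above NC. That separation held for 27.2% and 23.9% of all tested genes. It also held for Lss, whose interaction was 0.00 ± 0.17, so it does not show a difference between the responses. The response to 50 pulses differed for 3 of the 8, at -0.51 for Idi1, -1.19 for Fdft1 and 1.04 for Sqle. Of all tested genes 31.1% were called above 0 and 27.9% below in that comparison, so the count is not above the background. With scaling to total reads the differences of Idi1 and Fdft1 changed sign, to 1.78 and 1.08. Both interactions share the NC and P libraries.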

How the results depend on the processing

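Of 1192 values of members recomputed under an alternative, 1080 kept direction and call. Deviations from the group means had correlations of -0.0879 to 0.101 between same-numbered libraries. Such values cannot show whether these libraries were cultured or run as sets. With the replicate block the counts called higher after 10 pulses were again 6 without PE and 7 with PE, and all 20 counts equalled the main ones.

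With scaling to total reads, ES50 versus NC had 0 members higher and 8 lower, ES50 versus ES10 had 0 and 8, P_ES50 versus P had 0 and 8, the interaction of PE and 50 pulses had 8 above and 0 below, and P_ES10 versus ES10 had 2 higher. Under that scaling 96.3%, 96.3% and 87.8% of all genes were lower in the first 3 and 88.7% above 0 in the interaction. Nuclear and quantile scaling each gave 2 members lower in ES50 versus NC, and 2 and 3 above 0 in that interaction. P versus NC had 7 lower after quantile normalization, where 7.21% of all genes were lower, and 8 with only the groups compared or without ES50. For fits with fewer libraries the share of all genes called is not given here. P_ES10 versus ES10 had 2 higher without ES50, and 1 lower without ES50 or with only the groups compared. Fewer libraries or another scaling define these alternatives; the cause of each change was not tested.

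Single genes that changed sign with total reads were, in ES50 versus NC, Cyp51 (-3.10), Dhcr7 (-1.74), Fdft1 (-1.58), Hmgcs1 (-3.27), Idi1 (-1.98) and Insig1 (-3.19); in ES50 versus ES10, Dhcr7 (-2.02), Fdft1 (-1.97) and Idi1 (-3.03); in P_ES50 versus P, Cyp51 (-0.69), Fdft1 (-0.50), Hmgcs1 (-0.79), Idi1 (-0.21), Insig1 (-0.58), Lss (-0.68) and Sqle (-0.73). Lss (-0.0408) did so in the interaction with 10 pulses, Cyp51 (2.41), Dhcr7 (1.00), Fdft1 (1.08) and Idi1 (1.78) in that with 50 pulses, and Cyp51 (0.041) in P_ES10 versus ES10. In ES50 versus NC Hmgcs1 was at -0.0722 with nuclear reads and -0.15 by quantiles, and Insig1 at -0.0792 by quantiles; Cyp51 in the interaction with 50 pulses was at 0.0112 and 0.148.

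With each replicate left out in turn, 5 members were higher in every such fit of ES10 versus NC, 1 to 2 lower in ES50 versus NC (2 without ES50 replicate 1 or 2), 2 to 4 higher in P_ES50 versus P and 1 to 3 above 0 in the interaction with 50 pulses. Signs changed for Hmgcs1 in ES50 versus NC (-0.0245 to 0.0418), Dhcr7 (-0.14 to 0.21) and Idi1 (-0.038 to 0.0461) in ES50 versus ES10, Lss (-0.0297 to 0.0342) and Cyp51 (-0.10 to 0.03) in the interactions with 10 and 50 pulses, and Cyp51 (-0.0329 to 0.0012) and Dhcr7 (-0.122 to 0.0119) in P_ES10 versus ES10. Depth limits ES50 most, where Dhcr7 had 14 to 28 reads a library.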
